A study of Mus musculus with 27 samples.

Results

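The suppressor of cytokine signalling (SOCS) family was followed in mouse bone marrow-derived macrophages (BMDM) through acute and repeated stimulation with 4 Toll-like receptor (TLR) ligands. Its 8 members are Socs1 to Socs7 and Cish, and they were taken as every array probe that carries such a gene name. This gave 14 probes of the 55681 on the array, and 8 of 32138 named genes. Socs2 and Socs6 have 4 probes each and the other members 1 each, and where there were several the probe with the highest mean over all arrays stands for the gene. The rule that picks them uses gene names and no measured value, and the family was taken up with earlier results of these data known.

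SOCS proteins are intracellular brakes on cytokine receptors. Each has a central SH2 domain, which binds phosphorylated tyrosines on receptors or kinases, and a C-terminal SOCS box, which binds elongins B and C and a cullin ubiquitin ligase. Cytokines that act through Janus kinases (JAK) and STAT transcription factors switch on SOCS genes, and the SOCS proteins then dampen the same receptors. SOCS1 blocks JAK kinases directly and is best known for restraining interferon signalling, SOCS3 binds the shared receptor chain gp130 and restrains interleukin-6 (IL-6) signalling, and CIS (the product of Cish) and SOCS2 act on receptors that use STAT5. SOCS4 and SOCS5 have been tied to the epidermal growth factor receptor, and SOCS6 and SOCS7 to receptor tyrosine kinase and insulin signalling. In macrophages SOCS1 and SOCS3 are the members known for limiting responses to endotoxin and to the cytokines that it elicits.

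Promoter sequences were at hand for 4 of the 8 members, Socs1, Socs3, Socs4 and Cish, and those of the 3 genes that changed most are shown because the members differed in how they responded. They are the 250 bases before the transcription start in RefSeq annotation of GRCm38.p6, written 5′ to 3′ on the gene's strand. Socs1 lies on chromosome 16 (chr16:10785537-10785786, minus strand), Socs3 on chromosome 11 (chr11:117969367-117969616, minus strand) and Cish on chromosome 9 (chr9:107296409-107296658, plus strand). Capitals mark matches to TTCNNNGAA, the core of a STAT site, or a GAAA repeat with 2 bases between, the core of an interferon-stimulated response element.
Socs1: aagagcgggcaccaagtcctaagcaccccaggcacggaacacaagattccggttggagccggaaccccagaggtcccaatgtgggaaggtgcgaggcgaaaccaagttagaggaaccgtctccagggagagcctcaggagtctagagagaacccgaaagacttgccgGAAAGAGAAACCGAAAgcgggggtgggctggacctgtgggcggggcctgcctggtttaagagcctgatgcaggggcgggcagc
Socs3: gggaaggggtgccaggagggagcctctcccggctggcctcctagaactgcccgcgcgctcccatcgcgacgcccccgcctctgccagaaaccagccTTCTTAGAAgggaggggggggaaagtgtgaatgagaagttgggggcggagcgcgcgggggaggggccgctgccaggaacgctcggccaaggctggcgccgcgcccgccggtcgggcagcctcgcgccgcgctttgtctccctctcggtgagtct
Cish: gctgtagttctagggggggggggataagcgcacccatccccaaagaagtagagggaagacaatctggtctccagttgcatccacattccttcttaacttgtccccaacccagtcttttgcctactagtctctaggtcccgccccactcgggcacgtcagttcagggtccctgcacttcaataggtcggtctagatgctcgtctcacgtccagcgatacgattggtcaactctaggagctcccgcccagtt

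The Socs1 promoter held 2 overlapping copies of the GAAA repeat, GAAAGAGAAA from 83 bases and GAAACCGAAA from 77 bases before the start. Over both strands, 2.98% of the 32851 promoters in the table held this motif in the same 250 bases. The Socs3 promoter held 1 match to TTCNNNGAA, TTCTTAGAA from 154 bases before the start, a motif found in 7.02% of promoters. Cish had none of either in its 250 bases, but TTCCTGGAA began at base 1 and TTCTTGGAA at base 12 counted from the start site, just outside the stretch shown. With 50 bases after the start included, 8.3% of promoters held TTCNNNGAA. GGG and CC with 5 bases between, a pattern looser than an NF-κB site, was present in all 4 promoters and in 45.8% of all promoters. Socs1 had 3 matches and Socs3, Socs4 and Cish 1 each, and none is taken as an NF-κB site. TGANTCA, the core of an AP-1 site, was in none of the 4 and in 6.75% of all. The Socs4 promoter held no match to TTCNNNGAA or the GAAA repeat. These are letter matches and say nothing of binding.

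BMDM were grown from bone marrow of female C57BL/6 mice, 6 to 8 weeks old, for 7 days in medium conditioned by L cells. Naïve cells received no ligand. Acute cells were stimulated for 4 h with LPS (a ligand of TLR4, 100 ng/ml), CpG DNA (TLR9), Pam3CSK4 (TLR2, 100 ng/ml) or Poly(I:C) (TLR3, 10 µg/ml), and re-stimulated cells were pretreated with the ligand for 24 h, washed, rested and given the same ligand again for 4 h. The CpG dose is 100 µM in the sample labels and 1 µM in the study's methods. Each of the 9 conditions had 3 cultures, but replicate 3 of re-stimulated LPS and replicate 2 of acute Pam3CSK4 have no normalized values, since the submitters set them aside for low quality. These conditions have 2 arrays, and 25 arrays were used. In bulk RNA, fewer cells that express a gene and less RNA per cell cannot be told apart. The labels hold no group pretreated without a second dose, and no total culture times. In re-stimulated cells, what remained of the first exposure, culture time and the response to the second dose cannot be told apart.

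All 9 macrophage marker genes on the array, among them Emr1 and Csf1r, were well above background on all 25 arrays. Probes well above background made up 43.1 to 55% of all probes on 24 arrays and 74.9% on naïve replicate 3. The arrays of replicates 1, 2 and 3 each shared a slide, except that the 3 acute LPS arrays lay on 3 slides of their own, read on other days with another version of the design file, so slide and acute LPS stimulation cannot be told apart in any comparison that uses them. Neutrophil marker genes also differed: the log2 of their summed signal was 11.7 to 12.3 on the acute LPS arrays and 12.35 to 12.9 on the replicate 3 arrays of naïve cells and of cells given CpG, Pam3CSK4 or Poly(I:C) acutely or Poly(I:C) repeatedly, against 15.0 to 18.1 on the 17 other arrays. Of the 7 neutrophil markers, 3 to 5 were well above background on those 8 arrays. Replicate 3 of re-stimulated CpG and of re-stimulated Pam3CSK4 cells, among the 17 others, also had 4 each. S100a8, Elane and Camp were well above background on every array, while Ly6g was so on 16 of the 25 arrays. The part of these markers in the results below was not tested. Levels below are the deposited log2 values of single probes, which can be compared between conditions but not between genes. Adjusted p-values come from limma with Benjamini-Hochberg adjustment over all probes tested, and a probe was called at an adjusted p under 0.05 and a difference of at least 1.5-fold.

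Socs1, the JAK inhibitor, was among the members with the widest swings, and its level after stimulation depended on the ligand. Its probe lies at chr16:10783951-10784010 of mm9, the build of the array files. The naïve arrays read 8.10, 7.62 and 7.59. Acute LPS gave 14.03, 13.83 and 13.34, a 62.4-fold higher level (log2 difference 5.96 ± 0.26 SE, adjusted p = 0.000226). Acute Poly(I:C) gave 14.69, 14.68 and 14.02, a 103-fold higher level (6.69 ± 0.27, adjusted p = 0.00109). No array of either group came near the naïve ones. Acute CpG gave 11.60, 11.90 and 13.69, 24.7-fold above naïve cells (adjusted p = 0.0163), with replicate 3 highest. The call was lost with replicate number as a block (adjusted p = 0.0536) and when naïve or CpG replicate 1 or 2 was left out (adjusted p 0.0539 to 0.0796), while the difference on the shared slides was 3.50 to 6.10. Acute Pam3CSK4 gave the lowest stimulated values, 10.55 and 8.76, which lay above every naïve array but were not called (3.69-fold, adjusted p = 0.332).

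The Socs1 level on re-stimulation lay below that of acute cells with LPS and Poly(I:C) and not with CpG or Pam3CSK4. LPS re-stimulated cells read 10.75 and 11.35, a fall of 6.43-fold from acute LPS (log2 difference -2.68 ± 0.30, adjusted p = 0.002), and 9.71-fold above naïve cells (adjusted p = 0.0157). The fall held in every alternative run (adjusted p 0.000305 to 0.0214), among them slide as a random block (-2.54, adjusted p = 0.0154). No slide held both LPS groups, so the slide term cannot separate slide from acute LPS. Neutrophil marker signal was higher in the re-stimulated LPS group, 15.9 on both arrays. Poly(I:C) re-stimulated cells read 10.34, 10.15 and 12.94, all below the acute arrays. Their mean was 9.96-fold lower than acute (log2 difference -3.32 ± 0.75), which missed the threshold (adjusted p = 0.0582). This fall passed when the high replicate 3 was left out (-4.21, adjusted p = 0.00683). With that array kept it passed with another background correction (adjusted p = 0.0497), in 1 fit over 9 groups (0.0029) and with slide as a random block (0.0011). CpG re-stimulated cells read 12.53, 12.76 and 13.51 and overlapped acute CpG (log2 difference 0.53, 95% interval -0.84 to 1.91, adjusted p = 0.64). They were 35.8-fold above naïve cells (adjusted p = 0.00174), a call that held in all 17 alternatives run for it. Pam3CSK4 re-stimulated cells read 11.20, 10.15 and 11.77 and overlapped acute Pam3CSK4, whose mean was lower by 1.39 on the log2 scale (95% interval of the difference -0.31 to 3.08, adjusted p = 0.446).

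Against naïve cells, Socs1 was called in the re-stimulated cells of all 4 ligands, 9.65-fold higher for Pam3CSK4 (adjusted p = 0.024) and 10.4-fold higher for Poly(I:C) cells (adjusted p = 0.0489) beside the folds given above. With replicate number as a block the Pam3CSK4 and Poly(I:C) calls were lost (adjusted p = 0.0582 and 0.0817), and so were those of LPS and Pam3CSK4 without naïve replicate 1 (adjusted p = 0.0526 and 0.0766) or 2 (0.0592 and 0.101). The LPS call was also lost without either LPS re-stimulated array (adjusted p = 0.159 and 0.245), and the Pam3CSK4 call without its re-stimulated replicate 1 (0.117). In Poly(I:C) cells the call did not survive the loss of any naïve array or of its own replicate 1 or 2 (adjusted p 0.0658 to 0.14), and it was absent with no detection filter (0.0836) or all 27 arrays (0.0504). In the order of the 9 means only the naïve group was separated from its neighbour, acute Pam3CSK4.

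Socs3, the brake on IL-6 receptor signalling, was high in every stimulated condition, and no change between first and second exposure was called. Its probe lies at chr11:117827480-117827539 of mm9. The naïve arrays read 7.14, 7.82 and 11.15, so naïve replicate 3 was over 3 log2 units above the others. Acute CpG gave the highest values, 16.70, 16.75 and 15.16, or 181-fold above naïve cells (log2 difference 7.50 ± 1.10, adjusted p = 0.0239). Acute LPS read 14.32, 14.24 and 14.52 (50.5-fold, adjusted p = 0.00999), and acute Poly(I:C) read 13.82, 13.65 and 13.52 (31.1-fold, adjusted p = 0.0495). Acute Pam3CSK4 read 15.64 and 13.45, above all naïve arrays but not called (57.4-fold, adjusted p = 0.288). The Pam3CSK4 difference was called in 4 of the 16 alternatives run for it. These were without naïve replicate 3 (7.07, adjusted p = 0.037) and with median scaling (5.85, adjusted p = 1.47e-09). The others were 1 fit over 9 groups (5.84, adjusted p = 0.00153) and slide as a random block in it (5.72, adjusted p = 0.000948). The acute LPS call held in every alternative (adjusted p 1.38e-17 to 0.04). With replicate number as a block the CpG and Poly(I:C) calls were lost (adjusted p = 0.069 and 0.0797). The CpG call was also lost without naïve or CpG replicate 1 or 2 (adjusted p 0.0804 to 0.108), and the Poly(I:C) call without naïve replicate 1 or 2 or any Poly(I:C) array (0.0841 to 0.176) and with no detection filter (0.0922).

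None of the 4 changes of Socs3 on re-stimulation was called. LPS re-stimulated cells read 14.96 and 14.64, slightly above every acute LPS array (log2 difference 0.43, 95% interval -0.08 to 0.95, adjusted p = 0.161). Pam3CSK4 re-stimulated cells read 14.85, 14.62 and 14.85 and lay between the acute arrays (0.23, 95% interval -1.32 to 1.78). CpG re-stimulated cells read 15.64, 15.28 and 16.22, overlapping acute CpG (-0.49, 95% interval -1.64 to 0.66). Poly(I:C) re-stimulated cells read 12.21, 11.43 and 14.90, the widest spread of a stimulated group, and the change of -0.81 (95% interval -2.86 to 1.24) was called only without replicate 3 of the re-stimulated cells (-1.84, adjusted p = 0.0215). Against naïve cells, Socs3 was called in CpG re-stimulated cells (129-fold, adjusted p = 0.0151) and Pam3CSK4 re-stimulated cells (67.2-fold, adjusted p = 0.0345). The differences with LPS (68.3-fold, adjusted p = 0.0621) and with Poly(I:C) cells (17.7-fold, adjusted p = 0.111) were not called, but both were without naïve replicate 3 (adjusted p = 0.000967 and 0.0285) and with replicate number as a block (0.0102 and 0.0292). The CpG call was lost without naïve replicate 2 or any CpG re-stimulated array (adjusted p 0.0529 to 0.0627). The Pam3CSK4 call was lost without naïve replicate 1 or 2 or any Pam3CSK4 re-stimulated array (0.074 to 0.138), with the block (0.0648) and with no detection filter (0.062).

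Cish, whose product acts on STAT5-linked receptors, rose on first exposure to LPS and CpG and read 7.26 to 8.12 after the second exposure to any of the 4 ligands. Its probe lies at chr9:107204196-107204255 of mm9. The naïve arrays read 6.79, 7.08 and 5.35. Acute CpG gave 11.22, 11.39 and 9.39, 19.2-fold above naïve cells (log2 difference 4.26 ± 0.70, adjusted p = 0.0295). Acute LPS gave 10.27, 10.66 and 9.58 (13.6-fold, 3.76 ± 0.52, adjusted p = 0.00452). Acute Poly(I:C) gave 10.77, 10.53 and 7.97, all above the naïve arrays but not called (10.2-fold, adjusted p = 0.0843). It was called with replicate number as a block (adjusted p = 0.032) and with median scaling (1.67e-05). The same held in 1 fit over 9 groups (0.00896) and with slide as a random block (0.0016). Replicate 3 was low in both groups, and the within-slide differences were 2.63 to 3.98. Acute Pam3CSK4 gave 11.21 and 7.00, and the second of these lay among the naïve values (6.50-fold, adjusted p = 0.487). In acute CpG, Pam3CSK4 and Poly(I:C) cells replicate 3 had the lowest Cish level, and these are arrays with low neutrophil marker signal. The acute LPS arrays also had low neutrophil marker signal (11.7 to 12.3), and their Cish values were 9.58 to 10.66. A link between the markers and Cish was not tested.

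Re-stimulated cells read 7.26 and 7.78 with LPS, 7.48, 7.77 and 7.58 with CpG, 8.12, 7.69 and 7.48 with Pam3CSK4, and 7.69, 7.86 and 7.99 with Poly(I:C). The 11 re-stimulated arrays thus lay in 1 narrow range whatever the ligand. Cish fell 8.34-fold from acute to re-stimulated CpG (log2 difference -3.06 ± 0.52, adjusted p = 0.039) and 6.28-fold from acute to re-stimulated LPS (-2.65 ± 0.36, adjusted p = 0.00354). The LPS fall was lost with all 27 arrays (-3.68, adjusted p = 0.0982) and kept with slide as a random block (-2.96, adjusted p = 0.0113). That block cannot separate slide from acute LPS. The Poly(I:C) difference was -1.91 (adjusted p = 0.164), and was called when acute Poly(I:C) replicate 3 was left out (-2.81, adjusted p = 0.016). The Pam3CSK4 difference was -1.34 with overlapping groups (adjusted p = 0.67) and turned to 0.76 without acute Pam3CSK4 replicate 1. The acute CpG call was lost without naïve or CpG replicate 1 or 2 (adjusted p 0.0921 to 0.116), and the fall with CpG without acute replicate 1 or 2 or any re-stimulated array (0.0906 to 0.129). With no detection filter neither was called (adjusted p = 0.0569 and 0.0819). None of the re-stimulated groups differed from naïve cells by a call (2.16- to 2.71-fold, adjusted p 0.112 to 0.302), although every re-stimulated array read above every naïve array. Without naïve replicate 3 the differences were called with CpG (0.67, adjusted p = 0.0474) and with Poly(I:C) (0.91, adjusted p = 0.0362).

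**Figure D1:**
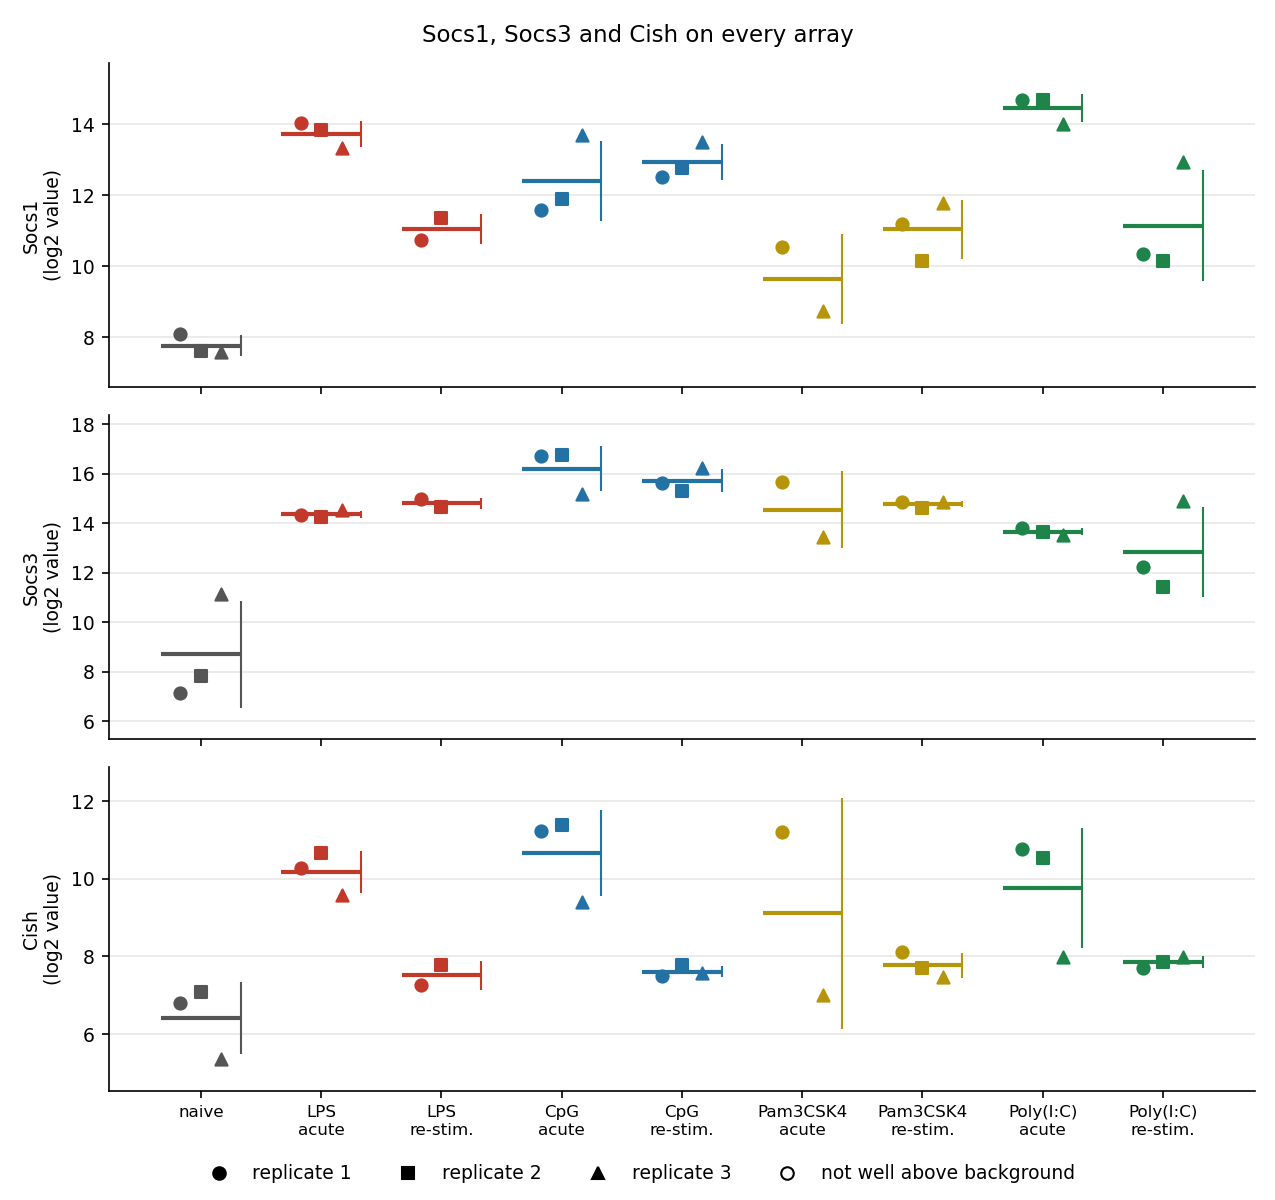
Log2 value of Socs1, Socs3 and Cish (y axes) on each of the 25 arrays in the 9 conditions (x axis). Symbols give the replicate number, horizontal lines the mean and vertical lines 1 SD either side of it. Socs3 read 14.62 to 16.22 on re-stimulation with LPS, CpG and Pam3CSK4 and 11.43 to 14.90 with Poly(I:C). Cish read 7.26 to 8.12 in all re-stimulated cells, and Socs1 fell after LPS with 10.75 and 11.35 against 13.34 to 14.03.

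Socs7 moved over a narrower range, higher on first exposure to LPS and Poly(I:C) and near the naïve level after the second. Its probe lies at chr11:97259763-97259822 of mm9. Naïve arrays read 11.57, 11.85 and 11.76. Acute Poly(I:C) gave 13.53, 13.50 and 13.02 (3.08-fold, log2 difference 1.62 ± 0.21, adjusted p = 0.0151), and acute LPS 12.89, 12.79 and 12.85 (2.17-fold, 1.12 ± 0.17, adjusted p = 0.00678). Acute CpG read 12.50, 12.36 and 12.37, above all naïve arrays by 1.60-fold but not called (adjusted p = 0.0775), and acute Pam3CSK4 read 12.09 and 11.81 and overlapped them. The 4 acute groups fell in separate ranges, Poly(I:C) above LPS, LPS above CpG and CpG above Pam3CSK4. None of these neighbouring steps was called in its own contrast, and those with LPS cannot be told apart from slide. Re-stimulated cells read 11.11 and 11.54 with LPS, 11.13, 11.72 and 11.49 with CpG, 10.87, 11.42 and 11.36 with Pam3CSK4, and 11.39, 10.92 and 11.93 with Poly(I:C). The fall from acute was called for Poly(I:C) (3.83-fold, log2 difference -1.94 ± 0.30, adjusted p = 0.0309) and LPS (2.87-fold, -1.52 ± 0.21, adjusted p = 0.00392), and for CpG it was 1.95-fold (adjusted p = 0.0544). Differences between re-stimulated and naïve cells were -0.51 to -0.28 and not called, and with median scaling they turned to 0.13 to 0.83. The LPS fall held in every alternative (adjusted p 0.000272 to 0.0352), and the acute LPS call in all but median scaling (adjusted p = 0.137). The acute Poly(I:C) call was lost without naïve or Poly(I:C) replicate 1 or 2 (adjusted p 0.0606 to 0.0884), and the fall with Poly(I:C) without replicate 1 or 2 of either group (0.1 to 0.117) and with no detection filter (0.0658).

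The remaining members had few calls. Socs4 read 7.64, 7.94 and 7.90 in naïve cells and was highest in re-stimulated cells, 8.75 and 9.10 with LPS, 8.67, 8.86 and 8.64 with CpG and 8.60, 8.92 and 8.43 with Poly(I:C). Every re-stimulated array of these ligands and of Pam3CSK4 (8.26, 8.56 and 8.45) read above every naïve array. The difference with CpG was called (1.86-fold, log2 difference 0.90 ± 0.17, adjusted p = 0.0266), and the call was lost with replicate number as a block (adjusted p = 0.0545) or without naïve replicate 1 or 2 or any CpG re-stimulated array (0.0701 to 0.0983), with median scaling (0.0537) and with no detection filter (0.0753). The LPS and Poly(I:C) differences (2.15- and 1.77-fold) had an adjusted p of 0.0577 and 0.0611. Acute cells read 8.12 to 8.55 with LPS, CpG and Pam3CSK4 and 7.82, 7.96 and 8.10 with Poly(I:C), none of them called.

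Socs5 was lowest after Poly(I:C). Naïve arrays read 8.20, 7.95 and 8.24, acute Poly(I:C) 7.08, 7.36 and 7.87, and re-stimulated Poly(I:C) 6.41, 7.23 and 7.25. All 6 Poly(I:C) arrays lay below the naïve ones, but neither difference was called (acute -0.69, adjusted p = 0.177; re-stimulated -1.17, adjusted p = 0.0558). The latter passed when all 9 groups shared an estimate of the spread (adjusted p = 0.00477). The 3 other ligands gave Socs5 means of 7.62 to 8.32, and their differences from naïve cells were -0.51 to 0.19. LPS arrays also lay below all naïve ones, at 7.78, 7.61 and 7.46 acute and 7.85 and 7.48 re-stimulated. Neither LPS difference was called (-0.51 and -0.47, adjusted p = 0.0937 and 0.256).

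On its brightest probe Socs6 had its highest mean in naïve cells, 9.42, 9.11 and 7.93 by array. Only its fall from acute LPS (8.79, 8.74 and 7.93) to re-stimulated LPS (7.51 and 7.44) was called (2.01-fold, log2 difference -1.01 ± 0.31, adjusted p = 0.0477). This call did not hold without acute LPS replicate 1 or 2 or either re-stimulated array (adjusted p 0.11 to 0.176), nor with slide as a random block (0.06), median scaling, no detection filter, the mean over probes or all 27 arrays (0.0816 to 0.245). The next brightest Socs6 probe fell as well (log2 difference -1.44, adjusted p = 0.042). Re-stimulated means were 1.10 to 1.42 below the naïve mean, and all 4 differences were called once naïve replicate 3 was left out (adjusted p 0.00365 to 0.0383).

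Socs2 was near the detection limit. Its brightest probe was well above background on 16 of 25 arrays and read 4.49, 4.19 and 3.71 in naïve cells. LPS re-stimulated cells read 5.69 and 5.24, above acute LPS at 4.35, 4.05 and 3.66 (2.72-fold, log2 difference 1.45 ± 0.28, adjusted p = 0.0111). The call was lost without LPS re-stimulated replicate 1 (1.22, adjusted p = 0.0692), with slide as a random block (1.07, adjusted p = 0.232), in 1 fit over 9 groups (0.216), with all 27 arrays (0.105) and after another background correction (0.45, adjusted p = 0.031, under the fold threshold). Poly(I:C) re-stimulated cells read 6.51, 6.31 and 3.81, with replicate 3 not above background. The other 3 Socs2 probes were well above background on 14, 7 and 1 arrays.

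**Figure D2:**
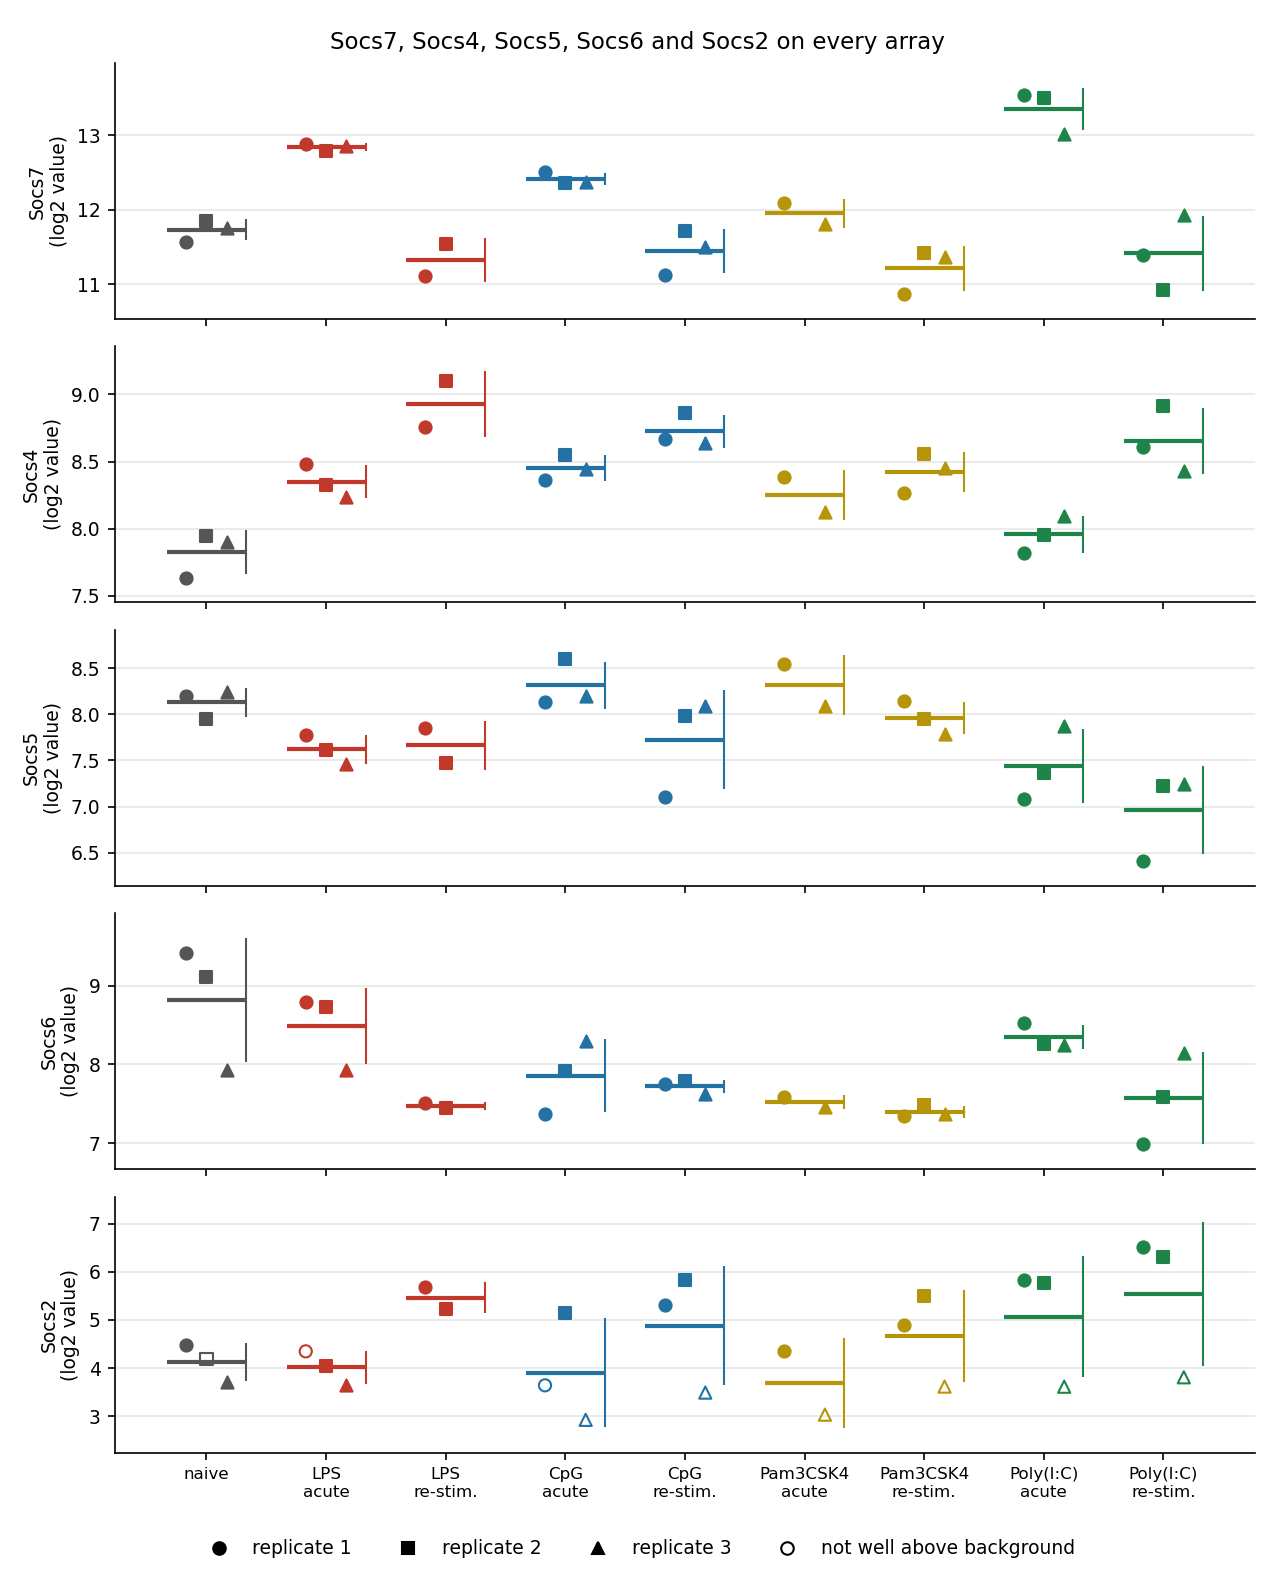
Log2 value of Socs7, Socs4, Socs5, Socs6 and Socs2 (y axes) on each of the 25 arrays in the 9 conditions (x axis), with symbols for replicate number, horizontal lines for the mean, vertical lines for 1 SD either side and open symbols where the probe was not well above background. Socs7 read 12.36 to 13.53 in acute LPS, CpG and Poly(I:C) cells and 10.87 to 11.93 in all re-stimulated cells, and Socs2 was below the detection mark on 9 arrays.

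Counted by comparison, all 8 members were tested in each, and the background is the share of all tested probes called. Acute LPS called 4 members, all higher (Socs1, Socs3, Socs7 and Cish), against 26.5% of all probes called in either direction and 13.2% called higher. Acute CpG called 3, all higher (Socs1, Socs3 and Cish), against 5.72% in either direction and 3.09% higher. Acute Poly(I:C) called 3, all higher (Socs1, Socs3 and Socs7), against 6.03% and 3.8%. Acute Pam3CSK4 called 0 members by limma, with 3 at an unadjusted p under 0.05, and 0% of all probes, of which 3458 had an unadjusted p under 0.05. The median member differed from naïve cells by 0.82 on the log2 scale with LPS, 0.65 with CpG, 0.32 with Pam3CSK4 and 1.28 with Poly(I:C), beside medians over all tested probes of -0.01, -0.07, 0.01 and -0.10. These 4 comparisons share the naïve arrays. With replicate number as a block, CpG kept a single call, Cish.

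Between acute and re-stimulated cells, LPS called 5 members (Socs1, Cish, Socs6 and Socs7 lower and Socs2 higher) against 34.2% of all probes in either direction, 17.2% higher and 17% lower. CpG called 1 (Cish lower) against 3.56% in either direction and 1.71% lower, and Poly(I:C) called 1 (Socs7 lower) against 4.93% and 2.62%. Pam3CSK4 called 0 by limma, with 1 member at an unadjusted p under 0.05, and 0% of all probes, 3461 of them at an unadjusted p under 0.05. Between naïve and re-stimulated cells, all calls were higher. LPS called 1 member (Socs1) against 5.66% of probes in either direction and 3.27% higher, and CpG 3 (Socs1, Socs3 and Socs4) against 13.1% and 6.65%. Pam3CSK4 called 2 (Socs1 and Socs3) against 5.36% and 2.61%, and Poly(I:C) 1 (Socs1) against 9.03% and 4.79%. With the block, the Pam3CSK4 count was 0. The LPS count in this comparison rose to 5 without naïve replicate 3 and fell to 0 without naïve replicate 1 or 2 or either LPS re-stimulated array.

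**Figure D3:**
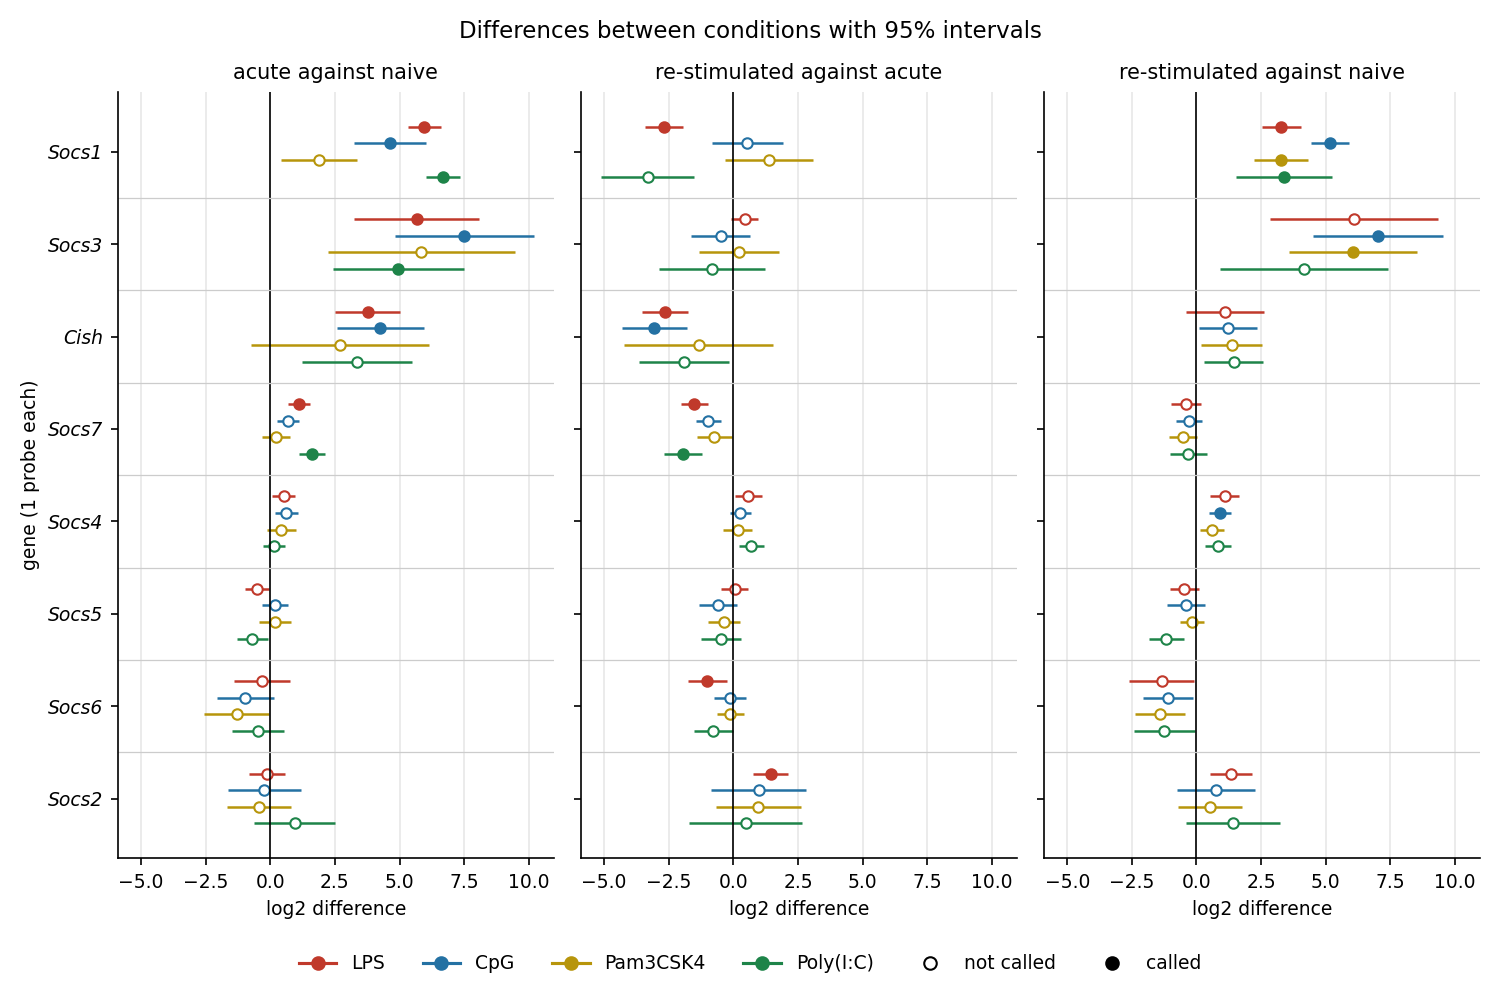
Log2 difference (x axes) of each member (y axis) between acute and naïve, re-stimulated and acute, and re-stimulated and naïve cells, by ligand, with 95% intervals from limma. Filled points were called. The largest difference was Socs3 in acute CpG cells, 7.50, and the intervals of Socs4, Socs5 and Socs6 lay between -2.60 and 1.66.

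By the study's criteria a tolerized gene is induced by acute stimulation (called higher), and its mean in re-stimulated cells is lower by 1.5-fold or more, a second step with no test. With LPS 3 of 4 induced members met this, Cish, Socs1 and Socs7, against 73.8% of all induced probes. With CpG 1 of 3 did, Cish, against 51% of induced probes. With Poly(I:C) 3 of 3 did, Socs1, Socs3 and Socs7, against 58.1%, though the Socs3 groups overlapped. No member was called higher with acute Pam3CSK4, so none could meet them. That comparison, with 2 Pam3CSK4 arrays, called none of 27843 probes. In 1 fit over 9 groups Socs3 was called there (log2 difference 5.84, adjusted p = 0.00153). Socs3 thus missed the criteria with LPS (0.43 higher on re-stimulation) and CpG (0.49 lower), and Socs1 with CpG (0.53 higher). The total of 7 member and ligand pairs was 4 without naïve replicate 1 or 2.

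The ligands were compared with each other at 4 h in 6 contrasts of acute cells, for which doses differ by compound. Socs1 was higher in acute LPS than in acute Pam3CSK4 cells by 4.08 ± 0.74 on the log2 scale (adjusted p = 0.000733) and lower in acute Pam3CSK4 than in acute Poly(I:C) cells by 4.81 ± 0.74 (log2 difference -4.81, adjusted p = 0.000347). Both differences held in all 36 alternatives. Socs7 was higher with LPS than with Pam3CSK4 (0.89 ± 0.26, adjusted p = 0.02), lower with CpG than with Poly(I:C) (-0.94 ± 0.23, adjusted p = 0.0233) and lower with Pam3CSK4 than with Poly(I:C) (-1.40 ± 0.26, adjusted p = 0.00177). The Socs7 difference between CpG and Poly(I:C) was lost without replicate 1 or 2 of either group (adjusted p 0.0653 to 0.116), and that between LPS and Pam3CSK4 without acute Pam3CSK4 replicate 3 (0.167) or LPS replicate 1 (0.0502). With median scaling neither was called (adjusted p = 0.731 and 0.204), and the first was also lost with no detection filter (0.0576) and with all 27 arrays (1). These calls are 2 of 8 members for LPS and Pam3CSK4 (19.4% of all probes called), 1 for CpG and Poly(I:C) (4.82%) and 2 for Pam3CSK4 and Poly(I:C) (7.81%). LPS against CpG called 0 members by limma, with 2 at an unadjusted p under 0.05 (17% of probes called), LPS against Poly(I:C) 0, with 2 (11.6%), and CpG against Pam3CSK4 0 of the 7 tested, with 1 (0.0433%). Socs3 was 2.54 higher with CpG than with Poly(I:C) (95% interval 0.73 to 4.35), short of a call (adjusted p = 0.107).

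The change on re-stimulation was compared between ligands in 6 further contrasts. Socs1 changed differently with LPS and with Pam3CSK4, by -4.07 ± 1.04 on the log2 scale (adjusted p = 0.0254): it fell with LPS, and with Pam3CSK4 the re-stimulated mean was 1.39 higher. This was 1 of 8 members against 7.98% of all probes, and it was lost without acute LPS replicate 1, either re-stimulated LPS array or acute Pam3CSK4 replicate 3 (adjusted p 0.0516 to 0.107), and with median scaling (0.0867) or no detection filter (0.0501). The Socs1 change with Pam3CSK4 less that with Poly(I:C) was 4.70 (95% interval 2.63 to 6.78, adjusted p = 0.0789; 0 members called, 0.119% of probes) and the change with CpG less that with Poly(I:C) was 3.85 (1.90 to 5.80, adjusted p = 0.16; 0 members called, 0.0396%). The change with LPS less that with CpG was -3.22 (-5.29 to -1.15, adjusted p = 0.0552; 0 members called, 7.07%). In these 3 contrasts, in that order, 3, 2 and 1 members had an unadjusted p under 0.05. No member was called by limma, or had an unadjusted p under 0.05, for LPS against Poly(I:C) (3.97% of probes called) or CpG against Pam3CSK4 (0.00378%). For Cish no pair of ligands was called, so a difference between ligands in its fall was not shown.

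Genes that work upstream and downstream of the family were read from lists of pathway genes. Of the ligands of JAK-STAT receptors, 11 of 14 tested were higher with LPS, 7 of 15 with CpG, 5 of 11 with Poly(I:C) and 0 of 11 with Pam3CSK4, where limma called no probe at all. Over all probes 13.2%, 3.09% and 3.8% were called higher with LPS, CpG and Poly(I:C). Their median difference was 3.58, 3.52, 3.16 and 1.39. Il6, which signals through the gp130 chain that SOCS3 binds, was well above background on 1 of 3 naïve arrays and rose from a naïve mean of 2.95 to 15.84 with LPS, 14.76 with CpG and 12.16 with Poly(I:C) (adjusted p = 0.000102, 0.00236 and 0.00135). Ifnb1, the type I interferon whose receptor signalling SOCS1 restrains, was likewise above background on 1 naïve array and rose from 3.00 to 13.33 with LPS, 11.63 with Poly(I:C) and 9.87 with CpG (adjusted p = 0.00028, 0.0011 and 0.0233). On re-stimulation with LPS 11 of 16 ligand genes were lower and 3 higher (17% and 17.2% of all probes), with Il6 down by 4.79 on the log2 scale (from 15.84 to 11.05), Ifnb1 from 13.33 to 8.88, Il12b from 12.81 to 7.52 and Il15 from 12.67 to 8.74. With CpG 4 of 16 were lower (1.71% of all probes), Il15 among them (from 10.79 to 7.46, adjusted p = 0.016).

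Among the receptors, 2 of 28 tested were higher and 6 lower in acute LPS cells. There 26.5% of all probes were called in either direction, so the receptors stood near the background in that comparison. In re-stimulated against acute LPS cells 11 of 28 were higher and 4 lower, beside 17.2% and 17% of all probes. Il6ra, which encodes the IL-6 receptor, was lower in acute LPS (from 12.97 to 9.91, adjusted p = 0.000787), CpG (to 10.63, adjusted p = 0.0309) and Poly(I:C) cells (to 11.16, adjusted p = 0.0364), and higher again in re-stimulated than in acute LPS cells (11.92, adjusted p = 0.00117). Il15ra rose above naïve cells in re-stimulated LPS (12.44 to 16.38, adjusted p = 0.0316) and CpG cells (to 15.35, adjusted p = 0.0323). Of 12 kinases and STATs, 5 were higher and 1 lower with acute LPS, 1 higher with CpG and 2 with Poly(I:C), where 26.5%, 5.72% and 6.03% of all probes were called in either direction. Jak2, a kinase that SOCS1 and SOCS3 inhibit, was higher than in naïve cells in all groups but acute Pam3CSK4 by 2.26 to 3.07 on the log2 scale, and was called in no comparison of re-stimulated with acute cells. Stat2 rose with acute LPS (1.92) and Poly(I:C) (2.05), and fell on re-stimulation with LPS from 14.39 to 12.97 (adjusted p = 0.00307). Other inhibitors of the pathway were called higher for 3 of 17 genes with acute LPS and 2 with acute Poly(I:C), with 2 lower with LPS, again near the share of all probes called with LPS. Usp18, which shuts off the interferon receptor, rose from 11.96 to 15.67 with LPS (adjusted p = 0.000241) and 15.35 with Poly(I:C) (adjusted p = 0.0011), and Ptpn2 from 10.36 to 12.01 and 11.87 (adjusted p = 0.00361 and 0.0306).

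Of 13 other genes of the SOCS box system tested, 4 were lower and 2 higher in acute LPS cells, against 26.5% of all probes called. Rab40c fell from 11.94 to 9.19 with LPS and 9.91 with Poly(I:C) (adjusted p = 0.00136 and 0.00861), and Spsb2 from 13.53 to 11.01 and 11.72 (adjusted p = 0.000763 and 0.0107). Both were higher again in re-stimulated than in acute LPS cells (by 2.19 and 1.99 on the log2 scale). Of the genes driven by STATs, 8 of 18 were higher with acute LPS and 1 lower, 6 of 17 with CpG and 1 lower, and 6 of 18 with Poly(I:C), against 13.2%, 3.09% and 3.8% of all probes called higher. On re-stimulation 11 of 19 were lower than in acute cells and 3 higher with LPS (17% and 17.2% of all probes). With CpG 5 of 18 were lower and 1 higher (3.56% in either direction, 1.71% lower). With Poly(I:C) 2 of 18 were lower (2.62%), and with Pam3CSK4 0 of 18. Irf1 rose from 12.96 to 16.44 with LPS, 15.67 with CpG and 16.85 with Poly(I:C). Its level was lower on re-stimulation with each of these (13.23, 13.51 and 15.06, adjusted p = 0.000591, 0.031 and 0.0371). Cxcl9, which was not above background on any naïve array, was at least 908-fold higher with acute LPS and at least 1433-fold higher with acute Poly(I:C). Of the proteins that SOCS proteins bind, 2 genes were higher and 1 lower of 15 with acute LPS, not above the 26.5% of all probes. Irs2, an insulin receptor substrate, fell from 10.30 to 8.21 with acute LPS (adjusted p = 0.0116) and to 8.23 with acute Poly(I:C) (adjusted p = 0.0447). The medians of all tested probes lay between -0.10 and 0.06 on the log2 scale in these comparisons.

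**Figure D4:**
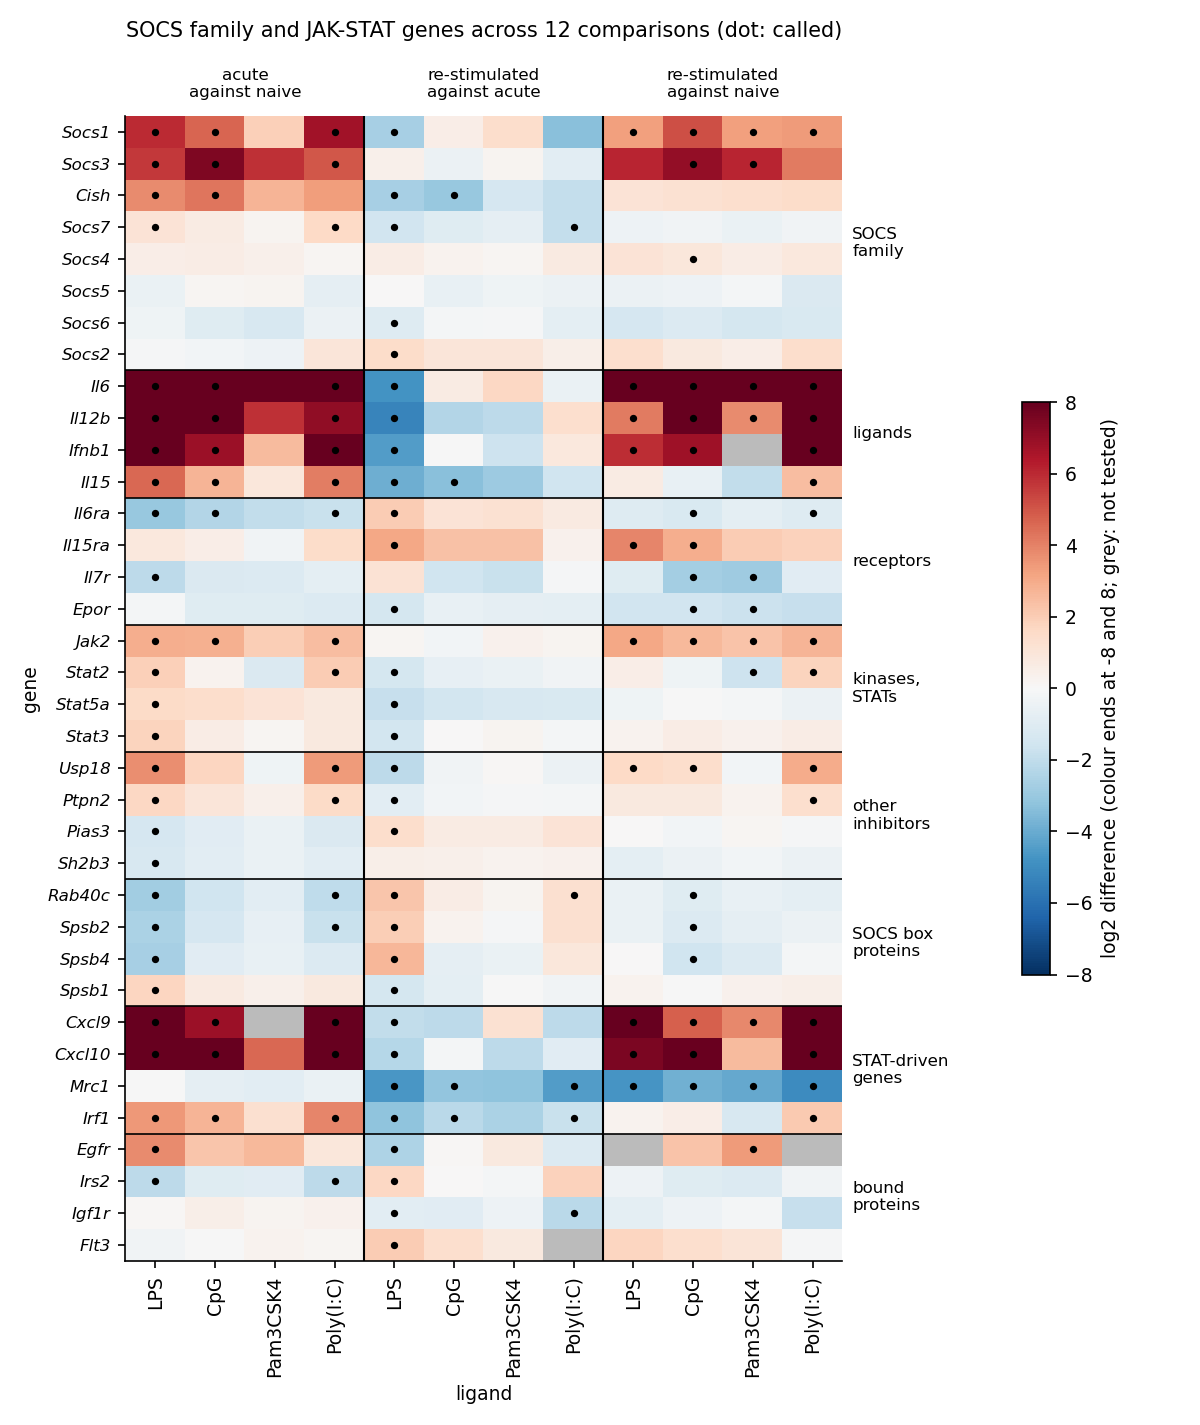
Log2 difference (colour) of the 8 members and of up to 4 genes of each pathway list (y axis) in the 12 comparisons, grouped by type and ligand (x axis). Dots mark calls and grey cells were not tested. With acute LPS Socs1 was 5.96 and Il6 12.89 higher, and on LPS re-stimulation Socs1 was 2.68 lower (log2 difference -2.68) and Socs3 0.43 higher.

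The genes whose 9 condition means followed a member most closely, among 12606 probes, are given as a description. For Socs1 they were Olfr324, Tiparp and Samhd1 (Pearson r over 9 conditions 0.97, 0.96 and 0.95). For Socs3 they were Wdr37, D16Ertd472e and Ehd1 (0.98, 0.97 and 0.97), and for Cish Mtmr14, Nfkb1 and Mark2 (0.98 each). For Socs7 they were Ythdf1, Rnf115 and Anxa7 (0.98, 0.98 and 0.97). Socs4 was followed by Pla2g4a, Dtnb and Zswim4 (0.98 to 0.96), Socs5 by Zdhhc20, Sh3bp5 and Snx25 (0.97 to 0.94), Socs6 by Ehd4, Mef2c and Sft2d2 (0.97 to 0.95) and Socs2 by C230081A13Rik, 9330175E14Rik and Pkig (0.97 to 0.94). Between members the correlations over the 9 condition means ran from -0.81 (Socs2 with Socs5) to 0.77 (Socs7 with Cish). Next came -0.74 for Socs4 with Socs6, 0.66 for Socs1 with Cish and -0.64 for Socs3 with Socs6. The condition means share arrays and slides between genes.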

How the data were processed

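RNA from BMDM was hybridised to 1-colour Agilent arrays. The authors deposited log2 values per probe after RMA background correction and quantile normalization with limma, together with the scanner intensity of every spot, from which background flags, probe positions (mm9), slides and scan days were read. Fold changes are those of the deposited log2 values. Quantile normalization forces all arrays to one distribution, so a shift shared by most genes cannot be seen.

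Groups came from the sample labels. For the arrays the methods describe cultures grown from marrow of 3 pooled mice, with a new pool for every replicate, while a general passage speaks of a different mouse for each; p-values measure the spread between these cultures. A probe entered a comparison when 2 or more arrays of 1 of its groups were flagged well above background. The 12 comparisons of 2 groups were fitted pairwise and the 12 contrasts between ligands in 1 fit over 9 groups, with limma 3.58.1 in R 4.3.3, which was also checked on simulated data. The number of arrays limits the precision, and values have no read depth.

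Replicate numbers 1 to 3 stand for shared slides, except for acute LPS. Deviations of same-numbered arrays correlated at 0.12 to 0.48 in the comparisons with 3 pairs that leave out LPS, so a replicate block was run as an alternative. Other alternatives were values made again from the scanner signals, other background corrections and scalings, no detection filter, the adjusted p alone, the mean over probes, all 27 arrays, shared fits over 9 groups and leaving out each array. Summed over the arrays, member spots carry another name in 3 cases. Names differ only on the acute LPS arrays, and names were taken from naïve replicate 1.

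The members and lists were chosen with earlier results of these data known. Of each pathway list the 4 genes called in most comparisons, with ties going to the largest difference, could be named, and for each member the 3 genes with the highest correlation. Promoters are from RefSeq; those of Socs2, Socs5, Socs6 and Socs7 were not used here. T cell, B cell, NK cell, dendritic, mast, erythroid and stromal markers were well above background on all 25 arrays for 3 of 6, 2 of 5, 0 of 3, 1 of 5, 0 of 4, 0 of 4 and 0 of 4 genes.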

Additional observations from a re-analysis of the deposited data

Results flagged for a closer look

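The effects of 2 ligands on a member differed by a tested contrast in 6 cases, all by limma in the fit over 9 groups. Socs1 differed between acute LPS and acute Pam3CSK4 cells by 4.08 (adjusted p = 0.000733) and between acute Pam3CSK4 and acute Poly(I:C) cells by -4.81 (adjusted p = 0.000347). Socs7 differed between acute LPS and acute Pam3CSK4 cells by 0.89 (adjusted p = 0.02), between acute CpG and acute Poly(I:C) cells by -0.94 (adjusted p = 0.0233) and between acute Pam3CSK4 and acute Poly(I:C) cells by -1.40 (adjusted p = 0.00177). The change of Socs1 on re-stimulation differed between LPS and Pam3CSK4 by -4.07 (adjusted p = 0.0254). All are log2 differences, first ligand less second. With median scaling the Socs7 differences between LPS and Pam3CSK4 and between CpG and Poly(I:C) were not called (adjusted p = 0.204 and 0.731), nor the change of Socs1 (0.0867). With no detection filter the Socs7 difference between CpG and Poly(I:C) and the Socs1 change were lost (0.0576 and 0.0501), and with all 27 arrays the former (1). Acute Pam3CSK4 had 2 arrays, and in the contrasts with LPS slide and acute LPS cannot be told apart.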

How the results depend on the processing

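Of 1808 member changes recomputed under the alternatives, 1581 kept their direction and side of the threshold and 40 reversed, none of them called in the values reported. Counts of member calls stayed within 1.5 times in 217 of 308 settings. The cause was not tested for any change below. With 75th percentile scaling the median of all probes in acute LPS against naïve cells was -0.31, against -0.06 in the deposited values.

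With replicate number as a block, members called were 1 for acute CpG (3 without it), 5 for re-stimulated LPS against naïve (1), 0 for re-stimulated Pam3CSK4 against naïve (2), 1 for re-stimulated Poly(I:C) against naïve (1, Socs3 in place of Socs1) and 2 for the changes between ligands (1). The LPS comparisons share slides only between naïve and re-stimulated cells, with correlations of 0.08 to 0.09.

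Re-stimulated against naïve cells, the LPS count was 2 with median scaling, 3 with normexp, 3 with 75th percentile scaling, 2 with the mean over probes, and 4 with 1 fit over 9 groups or with slide as a random block in it. The Poly(I:C) count was 2 with median scaling, 4 with normexp or 75th percentile scaling, 0 with no detection filter or all 27 arrays, and 5 in both shared fits. The Pam3CSK4 count was 1 with no filter and 4 in both shared fits. For acute cells, CpG called 5 in the shared fit and 6 with slide, and Pam3CSK4 1 with median scaling, 2 in the shared fit and 3 with slide. Re-stimulated against acute cells, CpG called 2 with normexp, the mean over probes or either shared fit and 0 with no filter. Poly(I:C) called 2 with normexp, 0 with no filter and 3 in both shared fits, and LPS called 2 with all 27 arrays and 3 with slide. Pairs of acute ligands gave 9 calls with 75th percentile scaling (5 reported). Changes between ligands gave 0 with median scaling or no filter, 3 with normexp and 2 with slide.

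Leaving out 1 array gave counts, for acute LPS, CpG, Pam3CSK4 and Poly(I:C) against naïve, of 4 to 4, 0 to 3, 0 to 2 and 1 to 4. Against acute cells they were 3 to 5, 0 to 1, 0 to 0 and 0 to 3, and for re-stimulated against naïve cells 0 to 5, 1 to 5, 0 to 3 and 0 to 3. Pairs of acute ligands gave 4 to 7, changes between ligands 0 to 6 and the tolerance criteria 4 to 8. Where this left 1 array in a group, that array was assumed to vary like the others.

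Reversed log2 differences follow. With median scaling, re-stimulated against acute, they were Socs6 0.18 (CpG) and 0.22 (Pam3CSK4) and Socs5 0.0068 (Pam3CSK4). Against naïve they were Socs7 0.25 (LPS), 0.83 (CpG), 0.13 (Pam3CSK4) and 0.56 (Poly(I:C)) and Socs5 0.41 (CpG) and 0.24 (Pam3CSK4). With normexp they were Socs2 0.021 (acute CpG) and Socs5 -0.012 (LPS re-stimulated against acute). With 75th percentile scaling, re-stimulated against naïve, they were Socs2 -0.10 (CpG) and -0.19 (Pam3CSK4) and Socs7 0.039 (CpG). With the mean over probes Socs6 turned to 0.33 (CpG) and 0.064 (Pam3CSK4) on re-stimulation. With all 27 arrays, acute Pam3CSK4 gave Socs2 1.35, Socs4 -1.19 and Socs7 -1.27, and its re-stimulation Socs2 -0.74, Socs3 -0.19, Socs6 1.00 and Socs7 0.77. In that setting LPS re-stimulated against acute gave Socs4 -0.52 and Socs5 -0.71, and against naïve Socs4 -0.019 and Cish -0.065. With the replicate block Socs5 was -0.033 (LPS re-stimulated against acute).

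Leaving out 1 array, the differences whose sign turned ranged as follows. In acute cells Socs2 was -0.32 to 0.071 with LPS (above 0 without naïve replicate 1 or LPS replicate 3), -0.845 to 0.265 with CpG (above 0 without CpG replicate 3) and -1.10 to 0.23 with Pam3CSK4 (above 0 without its replicate 3), and Socs5 -0.044 to 0.42 with Pam3CSK4 (below 0 without its replicate 1). On re-stimulation Socs5 was -0.14 to 0.23 with LPS (-0.033 without acute replicate 3, lowest without re-stimulated replicate 1) and Socs6 -0.38 to 0.079 with CpG (above 0 without acute replicate 3). With Pam3CSK4 Socs3 was -0.87 (without acute replicate 3) to 1.32 and Cish -3.44 to 0.76 (without acute replicate 1). With Poly(I:C) Socs2 was -0.26 (without acute replicate 3) to 1.34, and -0.014 without re-stimulated replicate 1. Signal over background limits Socs2 most, whose probes were not well above background on 9 or more arrays.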
